A study of Mus musculus with 12 samples.

Results

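The genes described here encode the core of transforming growth factor beta (TGF-beta) signalling, namely the ligands Tgfb1, Tgfb2 and Tgfb3, the receptors Tgfbr1 and Tgfbr2, the signal carriers Smad2, Smad3 and Smad4, and the feedback inhibitors Smad7 and Skil. H3K27ac, a histone acetylation that marks promoters and enhancers in use, was measured at them by ChIP-seq with a human spike-in. Intervals were taken where the nearest-gene name in the deposited table was 1 of these 10 symbols. This gave 72 of 126464 intervals, and these carried the names of 9 of the 10 genes among 22264 symbols in the table. No interval carried the name Tgfb3. The cells were 4T1, 1 mouse mammary carcinoma line that forms metastases in mice, and all were treated in culture for 48 h. The 6 groups were vehicle, acetate (5 mM), etomoxir (50 µM), etomoxir with acetate, etomoxir with SB204990 (50 µM), and etomoxir with SB204990 and acetate. Each group had 2 libraries, here called set 1 and set 2 after a suffix shared across the groups. Acetate can be turned into acetyl-CoA, the donor of acetyl groups for histones. Etomoxir blocks the entry of long-chain fatty acids into mitochondria, and SB204990 blocks ATP citrate lyase, which makes acetyl-CoA from citrate in the cytoplasm. Nothing in the labels says that the 2 libraries of a group came from separate cultures, so p-values measure only the spread between these libraries.

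In TGF-beta signalling, a ligand released from its latent complex brings together the type II receptor (Tgfbr2) and the type I receptor (Tgfbr1), and the type I receptor phosphorylates Smad2 and Smad3. These join Smad4, enter the nucleus and act on target genes with partner factors. Smad7, itself a target, blocks the receptors, and Skil (SnoN) represses SMAD-driven transcription. In mammary carcinoma cells the pathway is known for its part in the epithelial-to-mesenchymal transition.

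All 10 genes had an interval over the start site of their annotated gene model (GENCODE vM21, mm10 coordinates). For 3 of them, Tgfb2, Tgfb3 and Smad4, that interval carried the name of another gene model (Gm29491, Gm48008 and Gm32548). Those 3 intervals lay outside the rule on names, and their values are given separately as start-site intervals, a choice made after the data were seen. Of the 72 named intervals, 32 overlapped the body of the gene they were named for and 40 did not. The start-site interval of Smad3 (chr9:63636975-63763293) was 126.3 kb long, covered the whole gene and part of its neighbour Aagab, and ranked 13 by length among all intervals. At Smad7 it (chr18:75337891-75414877) was 77.0 kb long and ranked 82. Tgfbr2 (chr9:116118123-116178803, 60.7 kb) and Skil (chr3:31089359-31121014, 31.7 kb) also had a start-site interval longer than 20 kb. Of all intervals, with or without a start site, 1.35% were that long. The others were shorter, at 16.0 kb for Tgfb1 (chr7:25679959-25695933, which also holds the start site of B9d2), 13.7 kb for Smad4 (chr18:73696437-73710128), 8.5 kb for Tgfb3 (chr12:86072895-86081381), 8.2 kb for Smad2 (chr18:76240600-76248786), 3.6 kb for Tgfbr1 (chr4:47351347-47354906) and 2.4 kb for Tgfb2 (chr1:186703851-186706266). The median length over all intervals was 715 bp. Start-site intervals of genes outside this list were not compared by length.

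**Figure D1:**
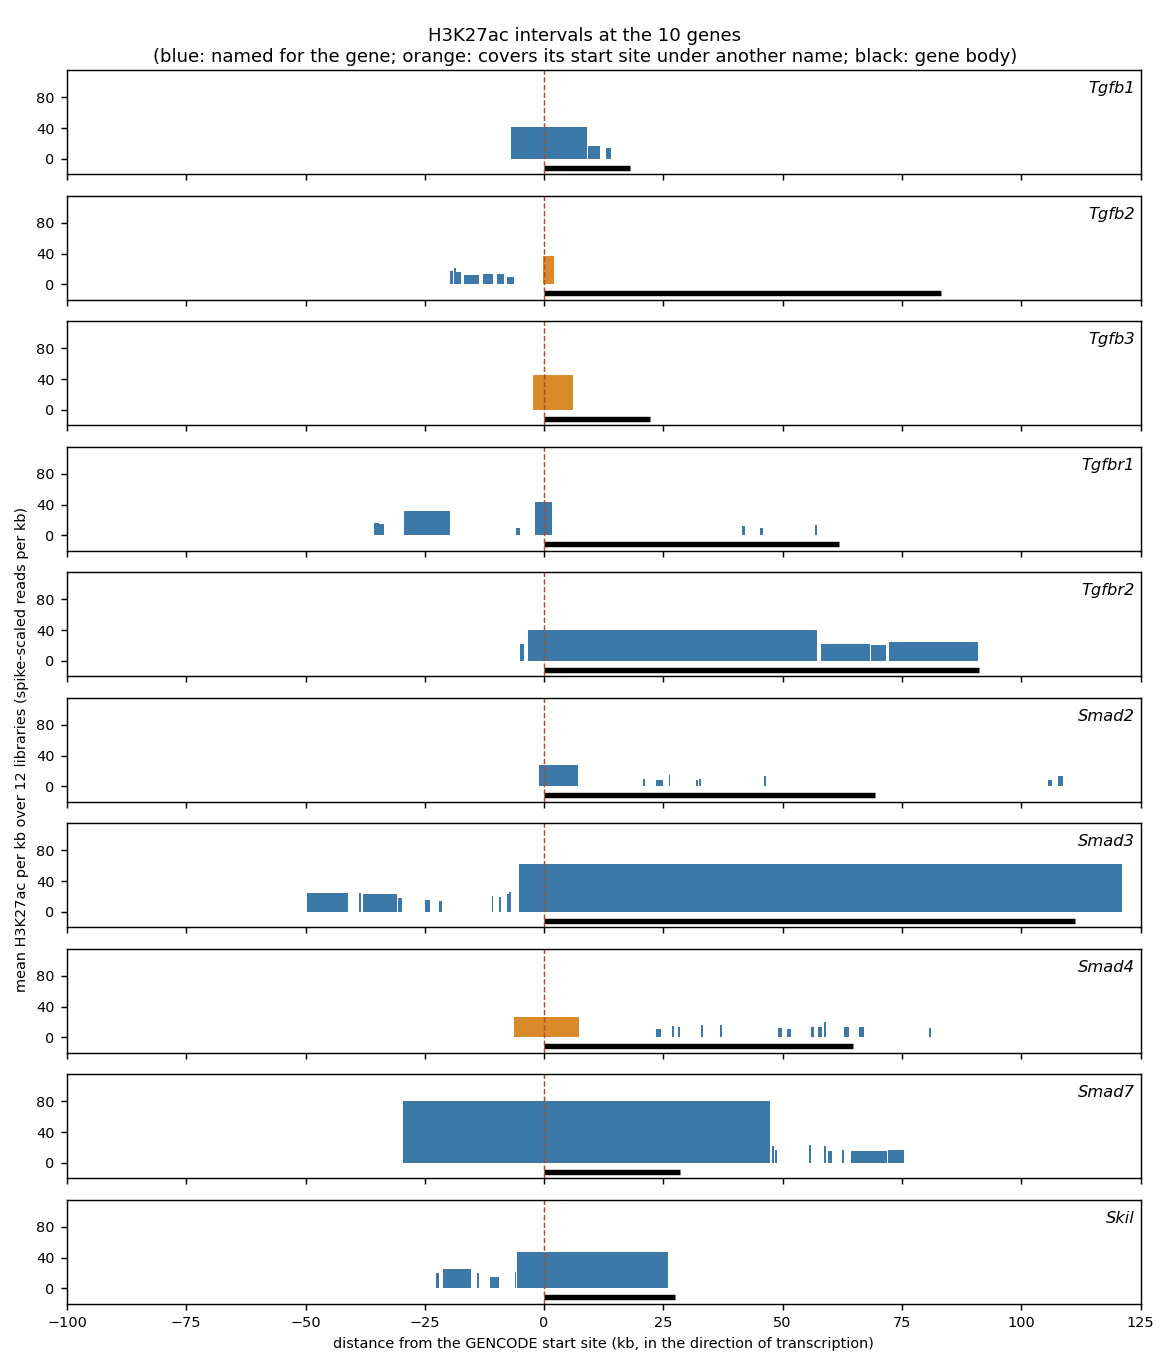
H3K27ac intervals of the 10 genes, by distance from the start site (kb, in the direction of transcription), with the mean over 12 libraries in spike-scaled reads per kb as the height. Blue intervals carry the gene's name, orange intervals cover its start site under another name, and the black line is the gene body; Smad3 and Smad7 have the longest intervals, 126.3 and 77.0 kb.

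The promoters that these start-site intervals cover are shown for the 5 genes that have an entry in the RefSeq promoter table (GRCm38.p6), because the acetate changes described below were measured over them. Each is the 250 bases before the start site, 5′ to 3′ on the gene's own strand. Capitals mark exact matches to GGGCGG or its reverse complement CCGCCC (the GC box), TATAAA on the printed strand (the TATA box), CCAAT or ATTGG (the CCAAT box), and CAGAC or GTCTG (the SMAD box). No match to one of these motifs overlaps a match to another in these windows.
Tgfb1: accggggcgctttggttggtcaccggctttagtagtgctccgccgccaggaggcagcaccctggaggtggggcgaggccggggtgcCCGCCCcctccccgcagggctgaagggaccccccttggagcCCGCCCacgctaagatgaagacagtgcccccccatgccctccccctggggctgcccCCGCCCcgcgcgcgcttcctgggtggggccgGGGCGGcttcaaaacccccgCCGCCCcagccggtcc
Tgfb2: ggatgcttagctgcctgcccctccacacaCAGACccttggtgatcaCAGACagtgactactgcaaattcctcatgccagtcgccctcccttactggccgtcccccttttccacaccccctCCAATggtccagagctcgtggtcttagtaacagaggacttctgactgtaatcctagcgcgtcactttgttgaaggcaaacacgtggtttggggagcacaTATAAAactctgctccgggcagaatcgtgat
Tgfbr1: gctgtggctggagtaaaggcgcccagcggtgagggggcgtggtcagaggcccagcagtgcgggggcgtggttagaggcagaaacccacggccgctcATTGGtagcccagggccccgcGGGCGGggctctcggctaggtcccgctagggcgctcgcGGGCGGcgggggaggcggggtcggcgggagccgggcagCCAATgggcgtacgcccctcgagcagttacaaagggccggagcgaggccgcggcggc
Tgfbr2: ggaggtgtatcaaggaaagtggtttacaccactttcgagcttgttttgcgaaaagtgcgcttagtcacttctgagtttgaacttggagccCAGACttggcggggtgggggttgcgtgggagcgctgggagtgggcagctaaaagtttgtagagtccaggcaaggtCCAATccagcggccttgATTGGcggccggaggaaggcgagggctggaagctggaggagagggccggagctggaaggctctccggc
Smad3: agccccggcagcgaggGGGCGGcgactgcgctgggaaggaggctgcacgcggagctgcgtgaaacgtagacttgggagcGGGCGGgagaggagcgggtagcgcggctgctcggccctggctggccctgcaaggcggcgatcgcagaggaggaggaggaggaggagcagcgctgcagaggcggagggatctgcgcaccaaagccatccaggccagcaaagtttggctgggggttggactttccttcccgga
The windows are at chr7:25686752-25687001 (plus strand), chr1:186705990-186706239 (minus), chr4:47352972-47353221 (plus), chr9:116175364-116175613 (minus) and chr9:63757995-63758244 (minus). The Tgfb1 window held 5 GC boxes and those of Tgfbr1 and Smad3 2 each, a motif found in 32.7% of the 32851 promoter windows in the table. The Tgfb2 window held the only TATAAA of the 5, which 7.59% of all windows held. SMAD boxes numbered 2 at Tgfb2 and 1 at Tgfbr2, and 42.2% of all windows held one. CCAAT boxes were found at Tgfb2 (1), Tgfbr1 (2) and Tgfbr2 (2), and in 33.8% of all windows. The palindrome GTCTAGAC was in none of the 5 windows and in 0.167% of all. The share of G and C was 75.2% at Tgfb1, 74.8% at Tgfbr1, 69.2% at Smad3, 58.4% at Tgfbr2 and 53.6% at Tgfb2, against a median of 52.4% over all windows. A motif match describes these letters and does not show that a factor was bound.

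Reads in intervals ranged from 7179165 to 16676442 per library, of which the 72 named intervals took between 0.197% and 0.255%, or between 14110 and 42578 reads. The etomoxir + SB204990 library of set 2 was at the low end of all 3 ranges. In that library 2.77% of reads fell in the lowest quartile of intervals by mean, against 0.99% to 1.41% in the other 11. Results that rest on it are given with and without it where that bears on the members. The start sites of the epithelial markers Krt8, Krt18, Krt14, Epcam and Cdh1 each lay in an interval and that of Krt5 did not. Of the markers of leukocytes (Ptprc, Cd3e), endothelium (Pecam1, Cdh5), fibroblasts (Pdgfra, Dcn) and other tissues (Alb, Myod1), only Pecam1 had an interval over its start site, with a mean of 12.1, against 2765 at Cdh1. By the intervals of their name, wherever these lie, levels were as follows, in reads per kb (means of 12 libraries). Pecam1 held 41.4, Ptprc 25.2, Cdh5 22.6, Dcn 21.7, Pdgfra 13.9 and Cd3e 12.9. The epithelial markers Cdh1, Krt8, Krt14 and Epcam held 53.7, 50.2, 48.3 and 35.6, so Epcam lay below Pecam1.

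To compare genes with each other, the level in the vehicle libraries was divided by the length of the start-site interval (spike-scaled reads per kb, mean ± SD, n = 2). Smad7 was highest with 66.6 ± 6.50 and Smad3 second with 50.9 ± 1.06, and the libraries of these genes overlapped neither each other nor any other gene. Skil (37.0 ± 2.11), Tgfbr1 (35.4 ± 4.73), Tgfb3 (33.7 ± 3.32), Tgfb1 (33.2 ± 2.13), Tgfbr2 (32.4 ± 2.47) and Tgfb2 (30.9 ± 1.29) followed, and neighbours in that order overlapped in their libraries. Smad2 (22.7 ± 2.65) and Smad4 (22.2 ± 1.97) were lowest and overlapped each other but not Tgfb2.

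The values of each gene in the 12 libraries follow, as the sum of spike-scaled reads over the intervals of its name, always with vehicle first, then acetate, etomoxir without and with acetate, and etomoxir + SB204990 without and with acetate. Among the ligands, Tgfb1, the most widely expressed isoform, held 539.9, 807, 589, 1076, 405 and 697 in set 1. In set 2 the Tgfb1 values were 617, 802, 601, 937, 501 and 918. In both sets the acetate library was above its partner without acetate in each of the 3 backgrounds, etomoxir + acetate was the highest and etomoxir + SB204990 the lowest. Tgfb2, whose named intervals all lie upstream of the gene or in its neighbour Rrp15, held 86.9, 142, 124, 232, 67.7 and 118 in set 1. Its set 2 values were 93.5, 151, 100.2, 221, 138 and 160.4. Etomoxir + acetate was again the highest in both sets, but the set 2 library of etomoxir + SB204990 lay above both vehicle libraries and above the set 1 library of etomoxir + SB204990 + acetate. Its start-site interval, which carries another name, gave 72.5, 124, 78.3, 127, 49.8 and 78.9 in set 1 and 76.9, 94.8, 78.5, 111, 58.0 and 104 in set 2. There the etomoxir + SB204990 libraries were the lowest of each set. Tgfb3 had no interval of its name, and its start-site interval held 266, 465, 335, 561, 243 and 366 in set 1 and 306, 409, 361, 600.0, 267 and 479.6 in set 2. In that interval the highest library of each set was etomoxir + acetate and the lowest etomoxir + SB204990. Summed over all intervals that overlap its gene body, Tgfb3 held 381, 670.0, 523, 909, 356 and 561 in set 1 and 502, 670.2, 525, 930.3, 510 and 730.2 in set 2. There the lowest library of set 2 was vehicle, and the etomoxir + SB204990 libraries lay below and above both vehicle libraries.

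Among the receptors, Tgfbr1, the type I receptor kinase, held 446, 658, 454, 778, 305 and 438 in set 1 and 438, 618, 419, 652, 365 and 591 in set 2. Its strongest interval was not at the start site. The intergenic interval chr4:47323836-47333406, upstream at -24989 bp by the authors' distance, took 58.6% of the Tgfbr1 sum and the start-site interval 30.2%. Tgfbr2, the receptor that binds the ligand first, held 2363, 3276, 2912, 4791, 2014 and 3118 in set 1 and 2715, 3459.8, 2735, 4465, 2573 and 4067 in set 2. Its start-site interval took 76.2% of the sum, and most of the rest came from 3 intervals inside the same gene. For both receptors each acetate library was above its partner in both sets.

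Smad2, a SMAD phosphorylated by the type I receptor, held 233, 309, 253, 422, 174 and 249.7 in set 1 and 216, 287, 251, 373, 212 and 389 in set 2. Its start-site interval took 82.3% of these sums. Smad3, phosphorylated by the same receptor, held 6600.0, 9952, 7482, 12725, 4956 and 7935 in set 1 and 6925, 9245, 7286, 11508, 5444 and 10015 in set 2, and 94.8% of it lay in the interval over the gene. For Smad3 etomoxir + acetate was the highest and etomoxir + SB204990 the lowest in both sets, whereas for Smad2 the highest library of set 2 was etomoxir + SB204990 + acetate. Smad4, the partner shared with bone morphogenetic protein (BMP) signalling, held 61.2, 96.0, 91.4, 210, 44.2 and 78.9 in set 1 and 72.1, 106, 89.3, 164, 113 and 118 in set 2 over its 14 named intervals. The 2 etomoxir + SB204990 libraries of Smad4 fell on either side of both vehicle libraries. Its start-site interval, under another name, held 323, 441, 306, 540, 211 and 312 in set 1 and 285, 372, 306, 492, 244 and 415 in set 2. In that interval both etomoxir + SB204990 libraries were below both vehicle libraries.

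Smad7, the inhibitory SMAD, held 5620.3, 8345, 5763, 8686, 4470.3 and 6027 in set 1 and 4978, 6661, 5977, 8593, 3656 and 8524 in set 2. The start-site interval took 96.7% of the Smad7 sum. The step from etomoxir + SB204990 to the same with acetate was 0.43 on the log2 scale in set 1 and 1.22 in set 2, a wider gap between sets than for any other gene with a call in that comparison. Skil, the co-repressor, held 1338, 2116, 1477, 2614, 960.3 and 1550.4 in set 1 and 1291, 1786, 1465, 2433, 1108 and 2055 in set 2, with 88.5% in the start-site interval. Both genes were lowest with etomoxir + SB204990 and highest with etomoxir + acetate in each set.

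**Figure D2:**
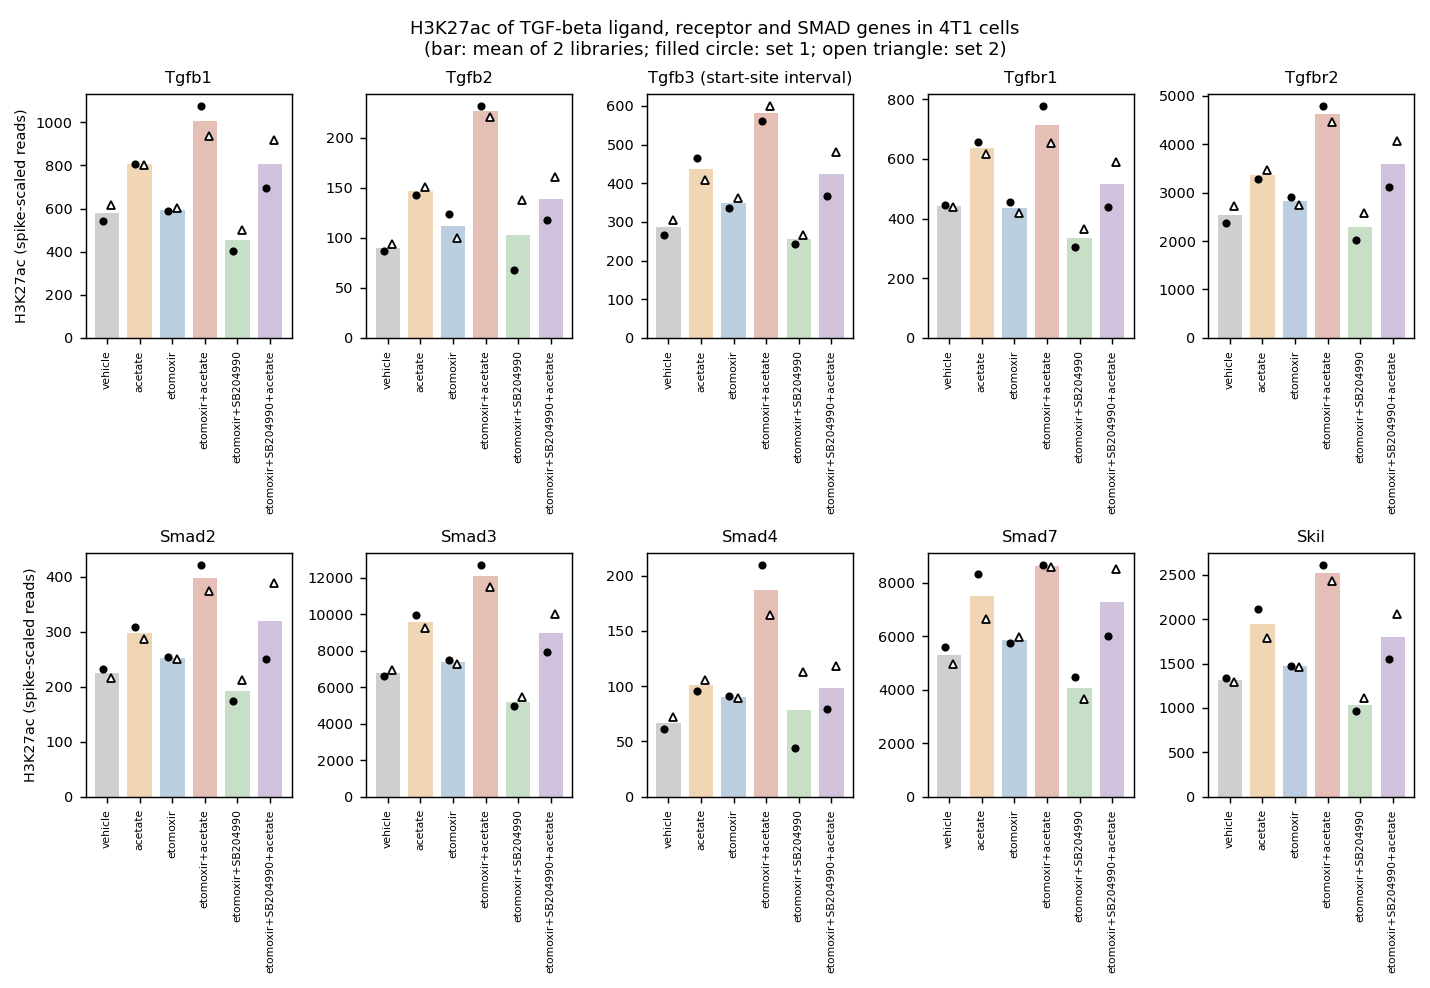
Spike-scaled H3K27ac reads of each gene in the 6 treatments, summed over the intervals of its name (for Tgfb3, the start-site interval); bars are means of 2 libraries, filled circles set 1 and open triangles set 2. In every gene and both sets each acetate library lies above its partner without acetate.

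Whether acetate alone raised H3K27ac at these genes was asked by comparing acetate with vehicle. Both acetate libraries lay above both vehicle libraries for 9 of the 9 named genes, as they did for 84.2% of the 19458 genes tested. The differences on the log2(value + 1) scale were Tgfb1 0.48, Tgfb2 0.69, Tgfbr1 0.53, Tgfbr2 0.41, Smad2 0.41, Smad3 0.50, Smad4 0.59, Smad7 0.50 and Skil 0.56, with SEs from 0.17 to 0.34. None passed the test (limma, adjusted p from 0.101 to 0.154), and 7 of 9 had an unadjusted p under 0.05. Over all genes 0 were called (0%) and 42.9% had an unadjusted p under 0.05. The median of the 9 was 0.50 and that of all genes tested 0.48. On the recovered reads edgeR called 0 of the 9 and DESeq2 5, with 0 and 3725 of all genes. A limma fit of only the 4 libraries compared called 9 of the 9 and 11973 of all genes. The 2 sets were scaled separately, and with the set as a block limma called 5 of the 9 genes and 3888 of all genes. Within set 1 the 9 differences ran from 0.41 to 0.71 and within set 2 from 0.35 to 0.68. Summed over the intervals that overlap the gene body, a choice made after the data were seen, 7 of all 10 genes were called, as were 9912 of 21528 genes.

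With etomoxir in both groups, all 9 named genes rose with acetate. The groups did not overlap for 9 of the 9 and for 98.3% of all genes tested. The log2 change was 1.03 (SE 0.34, adjusted p = 0.0102) for Smad4, 1.02 (SE 0.29, adjusted p = 0.0051) for Tgfb2 and 0.78 (SE 0.18, adjusted p = 0.00291) for Skil in the limma fit. It was 0.75 (SE 0.19, adjusted p = 0.0032) for Tgfb1 and 0.71 (SE 0.17, adjusted p = 0.00295) for Smad3. Smad7 had the lowest change, 0.56 (SE 0.19, adjusted p = 0.0118), with 0.59 in set 1 and 0.52 in set 2. The Smad7 call was lost whichever of the 4 libraries was left out (limma, adjusted p from 0.0551 to 0.0742), and that of Smad2 in 3 of the 4 cases (adjusted p from 0.0653 to 0.112). Smad4 and Tgfbr1 lost theirs in 2 of the 4 cases (adjusted p from 0.0538 to 0.0923 and from 0.0557 to 0.0775), and Tgfb1 and Tgfb2 in 1 (adjusted p = 0.0527 and 0.0593). Tgfbr1, Tgfbr2 and Smad2 rose by 0.71, 0.71 and 0.65. The share of genes called higher in this comparison was 78.2% of all 19458, and the median of the 9 (0.71) was below that of all genes tested (0.79). Without the set 1 library of etomoxir + acetate 4 of the 9 were called, and without the set 2 library of etomoxir also 4, while over all genes these fits called 5603 and 7368.

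In cells given etomoxir + SB204990, 7 of the 9 named genes rose with acetate (limma), and 57.7% of all genes tested did. Tgfb1 changed by 0.83 (SE 0.19, adjusted p = 0.00653), Smad7 by 0.83 (SE 0.19, adjusted p = 0.00653) and Skil by 0.79 (SE 0.18, adjusted p = 0.00653) on the log2 scale. Smad3 changed by 0.78 (SE 0.17, adjusted p = 0.00653), and Smad2, Tgfbr2 and Tgfbr1 by 0.69, 0.64 and 0.61. The 2 genes without a call were Tgfb2, at 0.50 (SE 0.29, adjusted p = 0.132), and Smad4, at 0.44 (SE 0.34, adjusted p = 0.248). The median of the 9 was 0.69, against 0.64 over all genes tested. The groups did not overlap for 7 of the 9 and for 70.3% of all genes. Without the set 2 library of etomoxir + SB204990 all 9 were called, as were 17777 of all genes, and the changes of Tgfb2 and Smad4 became 1.01 and 1.11. Without the set 1 library of that group 4 of the 9 were called, and 3712 of all genes. Without the set 2 library of etomoxir + SB204990 + acetate 0 were called, with 5 at an unadjusted p under 0.05 and 0 of all genes called. A limma fit of only the 4 libraries compared called 0 of the 9, with 4 at an unadjusted p under 0.05, against 0 of all genes called and 2010 at an unadjusted p under 0.05. Without the set 1 library of etomoxir + SB204990 the changes of Tgfb2 and Smad4 were instead -0.0058 and -0.23. In each fit without 1 library the group that lost it held a single library, which was assumed to vary like the other groups.

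For Tgfb2 and Smad4 the outcome depended on which intervals stood for the gene. The named intervals of these genes held few reads, and in the set 2 library of etomoxir + SB204990 they held 138 (Tgfb2) and 113 (Smad4), against 67.7 and 44.2 in set 1. In the start-site intervals the same libraries held 58.0 and 244, against 49.8 and 211. The start-site intervals rose with acetate in this background, by 0.74 (SE 0.28, adjusted p = 0.031) for Tgfb2 and 0.66 (SE 0.20, adjusted p = 0.00756) for Smad4, in the limma fit over intervals. The start-site interval of Tgfb3 rose by 0.71 (SE 0.20, adjusted p = 0.0036). With the set 2 library of etomoxir + SB204990 left out these 3 changes were 0.85, 0.77 and 0.78, and all passed. With etomoxir alone in both groups, the interval of Tgfb3 changed by 0.74 (SE 0.20, adjusted p = 0.00172) and that of Smad4 by 0.75 (SE 0.20, adjusted p = 0.00168). For the Tgfb2 start site the value was 0.60 (SE 0.28, adjusted p = 0.0535), which did not pass. Intervals of low mean held a larger share of reads in the set 2 library of etomoxir + SB204990, as given above, and the part of this in the Tgfb2 and Smad4 sums was not tested.

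**Figure D3:**
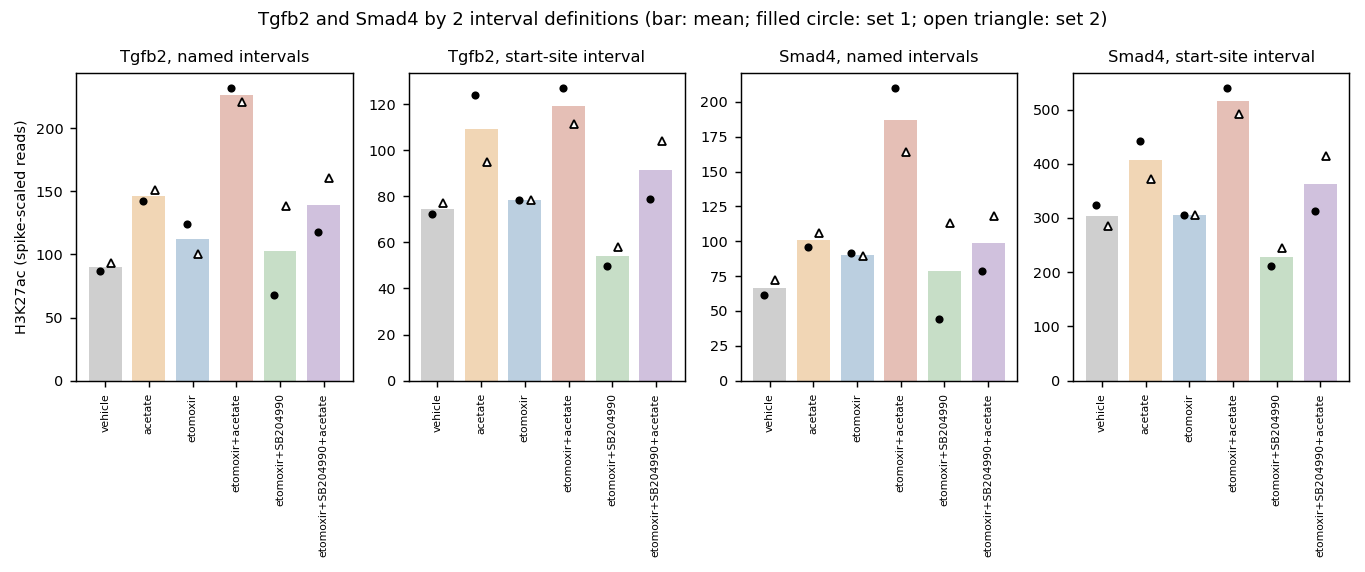
Tgfb2 and Smad4 by the sum over the intervals of their name and by the interval over their start site, in spike-scaled reads; bars are means of 2 libraries, filled circles set 1 and open triangles set 2. With etomoxir + SB204990 the named intervals of Smad4 differ between sets (44.2 and 113) more than its start-site interval (211 and 244).

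Averaged over the 3 backgrounds, acetate raised all 9 named genes (limma), as it did 88.2% of all genes tested. The changes lay between 0.59 and 0.74 on the log2 scale, or 1.5-fold for Smad2 and 1.7-fold for Tgfb2, and within each set all 9 were positive (from 0.53 to 0.88 in set 1 and from 0.49 to 0.72 in set 2). Among the ligands Tgfb1 changed by 0.69 (SE 0.11, adjusted p = 2.07e-05) and Tgfb2 by 0.74 (SE 0.17, adjusted p = 3.49e-04). The receptors changed by 0.61 (SE 0.12, adjusted p = 6.00e-05) for Tgfbr1 and 0.59 (SE 0.10, adjusted p = 3.60e-05) for Tgfbr2. Among the SMADs the values were 0.59 (SE 0.13, adjusted p = 2.90e-04) for Smad2, 0.67 (SE 0.10, adjusted p = 1.56e-05) for Smad3, 0.69 (SE 0.20, adjusted p = 0.00233) for Smad4 and 0.63 (SE 0.11, adjusted p = 3.20e-05) for Smad7. Skil changed by 0.71 (SE 0.10, adjusted p = 1.48e-05). The median of the 9 was 0.67 and that of all genes 0.63. Leaving out any 1 of the 12 libraries left all 9 called. Markers of cell types moved in the same direction, with 9 of 10 tested higher and a median of 0.63, namely 4 of 4 of epithelium, 1 of 2 of leukocytes, 2 of 2 of endothelium and 2 of 2 of fibroblasts. With the set 2 library of etomoxir + SB204990 left out 10 of 10 markers were higher. By start-site interval all 10 genes rose, from 0.56 at Tgfbr2 to 0.70 at Tgfbr1, with 0.69 (SE 0.11, adjusted p = 3.24e-08) at Tgfb3. Leaving out the set 2 library of etomoxir + SB204990, they ran from 0.57 at Smad7 to 0.73 at Tgfb1, and all passed.

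These changes were of the size of the shift that most genes shared. After median-of-ratios scaling, which sets that shift to about 0, the average acetate change of the 9 genes lay between -0.06 and 0.10, with 5 genes above 0 and 4 below, and 0 passed (limma, lowest adjusted p = 0.999, 0 at an unadjusted p under 0.05). In acetate against vehicle the range was -0.09 to 0.20, with etomoxir in both groups -0.31 to 0.17, and with etomoxir + SB204990 -0.12 to 0.26. Smad7 was at -0.31 with etomoxir and at 0.26 with etomoxir + SB204990. The calls for the 9 genes were thus made on values that carry the spike-in factors, and none of the 9 was shown to change by more or less than the typical gene. After scaling to equal totals, 0 of the 9 were called as well, with 0 at an unadjusted p under 0.05. When each library's share of reads was multiplied by its spike-in factor, which takes out its depth, the average change stayed positive for all 9 genes and 0 passed, with 0 at an unadjusted p under 0.05.

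**Figure D4:**
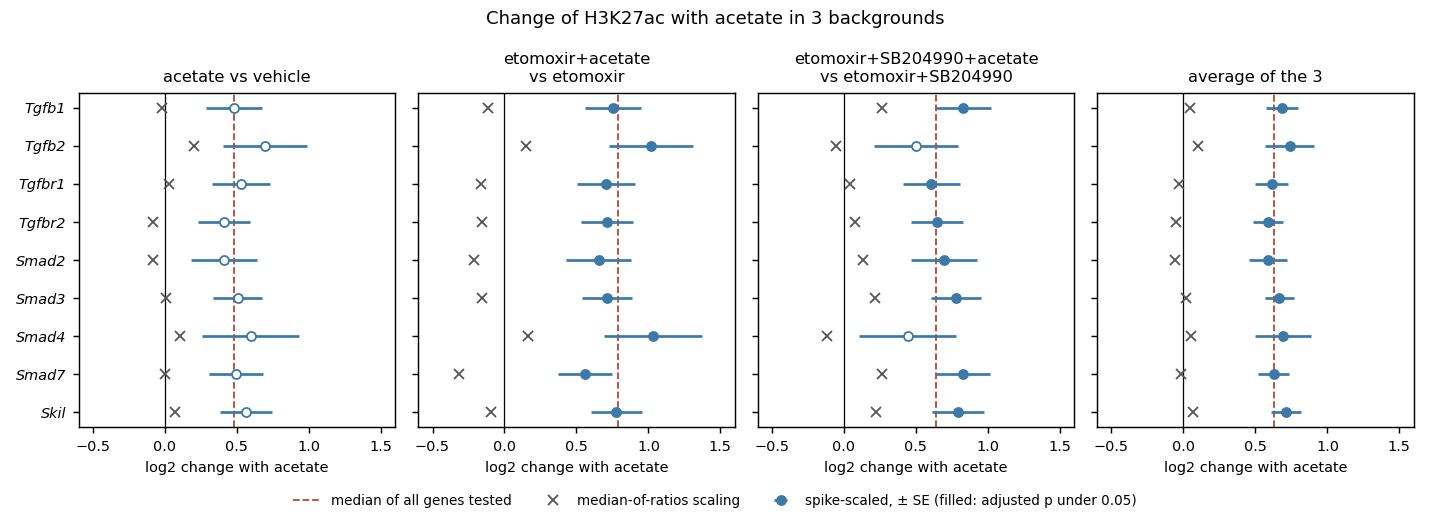
Log2 change of each gene with acetate in the 3 backgrounds and on average, as circles with SE (filled where the limma adjusted p is under 0.05) for spike-scaled values and as crosses after median-of-ratios scaling. The circles lie around the dashed line, the median of all genes tested (0.63 on average), and the crosses around 0.

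The inhibitors without acetate were compared with vehicle. For etomoxir, 8 of the 9 named genes had a positive difference and 0 passed (limma, lowest adjusted p = 0.99, 0 at an unadjusted p under 0.05, and 0 called by edgeR and by DESeq2). The values ran from -0.02 at Tgfbr1 to 0.44 at Smad4, with a median of 0.16 against 0.14 over all genes. Of all genes 0.0154% were called higher and 0.684% had an unadjusted p under 0.05. The 95% intervals of the 9 differences together spanned -0.41 to 1.10.

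For etomoxir + SB204990, the difference from vehicle was negative for 7 of the 9 genes and positive for Tgfb2 (0.10) and Smad4 (0.09). The values were -0.40 for Tgfbr1, -0.39 for Smad7, -0.38 for Smad3, -0.36 for Tgfb1, -0.35 for Skil, -0.22 for Smad2 and -0.15 for Tgfbr2. None passed (limma, lowest adjusted p = 0.777, with Smad3 and Smad7 at an unadjusted p under 0.05), nor did any with edgeR or DESeq2. The groups did not overlap, with both inhibitor libraries the lower, for 6 of the 9, against 25.5% of all genes. 0.00514% of all genes were called higher and 0% lower, and 4.24% had an unadjusted p under 0.05. The median of the 9 was -0.35 and that of all genes -0.18. By start-site interval all 10 genes were negative, from -0.47 at Tgfb2 to -0.16 at Tgfb3, and none passed. With the set 2 library of etomoxir + SB204990 left out they ran from -0.57 at Tgfb2 to -0.23 at Smad7, and again none passed, with 4 of 10 at an unadjusted p under 0.05. When 1 library at a time was left out, the differences for Smad4, Tgfb2 and Tgfbr2 reached 0.76, 0.61 and 0.0225 at most. The pathway list described below (71 genes tested) had a median of -0.47 without the set 2 library of etomoxir + SB204990. In that fit all 9 named genes were negative, with a median of -0.45. Still 0 of them were called then, with 5 at an unadjusted p under 0.05, while 2387 of all genes were called lower.

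Whether the acetate change itself differed with the inhibitors was tested as an interaction. With etomoxir the change was larger than without for 9 of the 9 genes, by 0.06 at Smad7 to 0.44 at Smad4, and none passed (limma, lowest adjusted p = 0.774, 0 at an unadjusted p under 0.05). With etomoxir + SB204990 the difference ran from -0.19 at Tgfb2 to 0.35 at Tgfb1, and none passed (lowest adjusted p = 0.999, 0 at an unadjusted p under 0.05). The medians of the 9 were 0.24 and 0.23, against 0.30 and 0.16 over all genes tested. The second median, without the set 2 library of etomoxir + SB204990, was 0.34 against 0.43, with 0 of the 9 called and 0 at an unadjusted p under 0.05. Neither edgeR nor DESeq2 called any of the 9 in either interaction, and 0% and 0% of all genes were called higher by limma, with 0.159% and 0.0565% at an unadjusted p under 0.05. The 95% intervals together spanned -0.50 to 1.37 and -1.09 to 0.91.

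Taken 1 interval at a time, 38 of the 72 named intervals had a mean of at least 10 reads and were tested, with no test of the other 34. On average over the backgrounds 32 of the 38 rose with acetate, against 77.2% of the 63903 intervals tested, with a median of 0.69 against 0.64. Leaving out the set 2 library of etomoxir + SB204990 gave 36 of 38 and 60579 of all intervals. The 6 that did not pass had means of at most 16.3 reads. With etomoxir in both groups 25 of 38 rose (56.4% of all intervals), and with etomoxir + SB204990 14 (27.4%). Under etomoxir the count was 2 without the set 1 library of etomoxir + acetate, 8 without the set 2 library of etomoxir, and 16 without its set 1 library, with 5144, 6711 and 15973 of all 63903 intervals called higher. Under etomoxir + SB204990 it was 30 without the set 2 library of that group, 6 without its set 1 library and 4 without the set 2 library of etomoxir + SB204990 + acetate, with 45762, 5288 and 2116 of all intervals called higher. For acetate against vehicle 0 of 38 passed (0.0955% of all intervals), with 13 at an unadjusted p under 0.05 (26.5%), 0 called by edgeR and 7 by DESeq2. Neither inhibitor comparison with vehicle called any of the 38 with limma, edgeR or DESeq2 (1 for etomoxir and 5 for etomoxir + SB204990 at an unadjusted p under 0.05, and 0.0563% and 0.0313% of all intervals called higher). Etomoxir + SB204990 called 0.0219% of all intervals lower, and 1.41% and 5.06% had an unadjusted p under 0.05. The interactions called 0 and 0 of the 38 with limma (2 and 0 at an unadjusted p under 0.05), and 0 with edgeR and with DESeq2. Of all intervals 0% and 0% were called higher, and 1.79% and 0.246% had an unadjusted p under 0.05.

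Distal and start-site intervals of the same gene were set side by side for the average acetate change (limma over intervals). At Tgfbr1 the upstream interval changed by 0.56 (SE 0.12, adjusted p = 1.53e-05) and the start-site interval by 0.70 (SE 0.14, adjusted p = 2.11e-06). At Tgfbr2 the start-site interval changed by 0.56 (SE 0.10, adjusted p = 1.32e-07), and the interval chr9:116179515-116180360 just upstream, whose mean was 18.0 reads, by 0.80 (SE 0.28, adjusted p = 0.0078). The interval over Skil changed by 0.69 (SE 0.10, adjusted p = 4.30e-10). An intergenic interval upstream of Skil (chr3:31073936-31079711), chosen after its values were seen, changed by 0.92 (SE 0.14, adjusted p = 2.11e-09). For Tgfb2 the strongest named interval (chr1:186719565-186722783, at the transcription end of Rrp15) changed by 0.87 (SE 0.21, adjusted p = 1.50e-04) and the named interval with the smallest distance in the deposited table (chr1:186712318-186713810) by 0.32 (SE 0.29, adjusted p = 0.293), which did not pass. Without the set 2 library of etomoxir + SB204990 the latter was 0.49 (SE 0.26, adjusted p = 0.0575), which did not pass either. For Smad4 the strongest named interval (chr18:73639914-73640864, in an exon) changed by 0.70 (SE 0.31, adjusted p = 0.034). At Tgfb1, Smad2, Smad3 and Smad7 the interval of smallest distance and of highest mean was the start-site interval, which changed by 0.69, 0.59, 0.66 and 0.63. By the distance in the deposited table, which runs from the centre of an interval to a start site chosen by the authors' annotation, the smallest values for Skil and Smad4 belonged to named intervals other than those described, with means of 4.07 and 9.85 reads, which were not tested. Differences between intervals of 1 gene were not tested.

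Other genes of the pathway were taken from a list of 84 symbols, of which 72 had an interval of their name and 71 were tested. On average over the backgrounds 69 of them rose with acetate and 0 fell, against 88.2% of all genes called higher, and their median was 0.66 against 0.63. Without the set 2 library of etomoxir + SB204990 71 of 71 rose, as did 19172 of all genes. The latent-complex genes, which hold or free the ligand, rose in 7 of 7 cases, led by Lrrc32, which holds latent TGF-beta at the cell surface, with 0.98 (SE 0.24, adjusted p = 7.18e-04). Itgb8 and Itgb6, the integrin chains that free the ligand, changed by 0.90 and 0.74. The means of Lrrc32, Itgb8 and Itgb6 were 49.6, 21.1 and 4163 reads. Among co-receptors and other receptors 9 of 10 rose, with the largest changes at Acvr2b 0.81, Eng 0.74 and Acvr1b 0.71. The receptor decoy Bambi did not pass, with 0.46 (SE 0.26, adjusted p = 0.099). The list of BMP, activin and nodal genes, which holds ligands, antagonists and the protease gene Bmp1, rose in 13 of 13 cases, led by Fstl3, an activin-binding protein, with 1.01 (SE 0.15, adjusted p = 1.48e-05), followed by Bmp1 0.78 and Gdf11 0.76. All 3 other SMADs rose (Smad6 0.79, Smad1 0.67 and Smad5 0.59), and so did 10 of 10 nuclear partners and repressors, with the largest changes at Tgif2 0.83, Hdac1 0.76 and Crebbp 0.74. Of the genes for turnover and signal control 11 of 12 rose, among them Rnf111 0.77, Nedd4l 0.72 and Smurf1 0.69, and the deubiquitinase Usp9x did not pass, with 0.44 (SE 0.24, adjusted p = 0.0864). All 16 target genes tested rose, with the largest changes at Snai1 1.04 (limma, SE 0.30, adjusted p = 0.00297), Nedd9 0.79 and Itgb5 0.79. Snai1, a repressor of epithelial genes, had a low mean of 25.7 reads, against 235 for Nedd9 and 1828 for Itgb5.

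In the single comparisons the same list gave 0 of 71 called for acetate against vehicle, 63 higher with acetate under etomoxir and 58 under etomoxir + SB204990, against 0%, 78.2% and 57.7% of all genes. Its medians were 0.49, 0.78 and 0.70, against 0.48, 0.79 and 0.64 over all genes. Against vehicle, etomoxir called 0 of the list (median 0.12) and etomoxir + SB204990 0 (median -0.29), while of all genes 0.0154% and 0.00514% were called higher and the medians were 0.14 and -0.18. Without the set 2 library of etomoxir + SB204990, 69 of the list rose with acetate in that background (median 0.91), and 11 were lower than in vehicle (median -0.47), against 17777 and 2387 of all 19458 genes.

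Each gene was also set beside the other gene whose sums followed it most closely over the 12 libraries, by Pearson's r of log2(value + 1) after median-of-ratios scaling, among 15533 genes compared. The pairs were Tgfb1 and Ndst1 (0.99), Tgfb2 and Cdhr3 (0.877), Tgfbr1 and Ccne2 (0.976), Tgfbr2 and B4galnt3 (0.993), Smad2 and Gm31925 (0.988), Smad3 and Luzp1 (0.995), Smad4 and 4930402H24Rik (0.939), Smad7 and Ahnak (0.998) and Skil and Fbxw11 (0.992). The highest of so many r is high by construction, the points share libraries and depth, and the values are a description only.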

How the data were processed

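ChIP-seq for H3K27ac in 4T1 cells with 7.5% human chromatin as spike-in was deposited as a table of 126464 intervals by 12 libraries. The authors ran nf-core/chipseq on a merged human and mouse (mm10) genome and multiplied the reads per interval by 1 spike-in factor per library, set from the share of human reads and divided by the highest factor, so the deposited signal is scaled coverage per interval, named by nearest gene. The aligner, the peak caller and the number of libraries behind the interval calls are not given in the sources used here. In each set 1 library had a factor of 1 and holds plain counts as deposited, so levels in set 1 and set 2 are each relative to their own highest factor, and each set holds all 6 groups. Dividing by the factor gave whole reads for 100% of values (tolerance 0.001). Of the rows 12 (0.00949%, with 0.00362% of reads) had no gene name and were left out of gene sums.

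Values were tested as log2(value + 1), so that low values give understated changes, with limma 3.58.1 (R 4.3.3, intensity trend, all 12 libraries in 1 fit, Benjamini-Hochberg over all features with a mean of at least 10, threshold 0.05, two-sided). On the recovered counts edgeR 4.0.16 called 0 genes in acetate against vehicle (8383 at an unadjusted p under 0.05), 15279 higher under etomoxir, 10832 higher and 26 lower under etomoxir + SB204990, and 17033 higher and 1 lower on average. DESeq2 1.42.0, a pseudocount of 5, a minimum mean of 50 or none, no trend, 3 other scalings, promoter intervals alone, only the libraries compared, a replicate block and leaving out each library were alternatives. Under the other scalings the filter stayed on the deposited values, so the same features were tested. That was settled after results of these scalings had been seen, and 0 of the 9 genes were called with either filter. Start-site and gene-body intervals were added after the data were seen. The members and lists were chosen with earlier results of these data known. All 10 genes are named, with the interval nearest to the start site and the strongest interval of each, up to 3 genes of each pathway group with the largest called average acetate change, and the gene most like each by r. A marker of the cell type lists is not reported here. Scripts were tested on simulated data.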

Additional observations from a re-analysis of the deposited data

How the results depend on the processing

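With 2 libraries a group and 1 cell line, small differences could not be told from 0, and intervals of low mean had the widest errors. Nearest-gene names left the start sites of Tgfb2, Tgfb3 and Smad4 outside the named sums. For genes called in acetate against vehicle, the count of 0 became 5 with DESeq2, 9 in a fit of only the libraries compared, 2 (of 2 tested) with promoter-TSS intervals alone and 7 (of 10) with gene-body intervals. Of all genes these fits called 3725, 11973, 1020 (of 5241) and 9912 (of 21528). For intervals it became 7 with DESeq2, 12 with only the libraries compared and 7 (of 16 tested) with a minimum mean of 50, against 6865, 14916 and 6166 (of 24109) of all intervals. The 9 calls under etomoxir, the 7 under etomoxir + SB204990 and the 9 on average became 0 under median-of-ratios scaling, under total-sum scaling and with shares multiplied by the factor, and 2 (of 2 tested) with promoter-TSS intervals alone, which called 4136, 3184 and 4819 of all genes. Interval calls (25, 14 and 32) also became 0 under these 3 scalings. With a minimum mean of 50 they were 16 under etomoxir and 16 on average, all of the 16 then tested. They were 16 under etomoxir and 0 under etomoxir + SB204990 without the intensity trend. Counts over all intervals that go with these numbers, and with the replicate block below, are not given. The member counts therefore cannot be set against them. A fit of only the libraries compared left 0 genes and 0 intervals called under etomoxir + SB204990. Leaving out 1 library at a time gave 4 to 8 gene calls under etomoxir, 0 to 9 under etomoxir + SB204990 and 9 to 9 on average, and 2 to 18, 4 to 30 and 24 to 36 interval calls. Etomoxir + SB204990 against vehicle had 0 to 1 interval calls. With the set number as a replicate block, 5 genes and 2 intervals were called in acetate against vehicle, and no other count of calls moved by more than 1.5 times. Over the 15 pairs of groups the deviations of same-numbered libraries had r from -0.225 to 0.601 over genes (4 pairs over 0.1). Over intervals r ran from -0.149 to 0.354 (3 pairs over 0.1). This r leaves out a shift common to all features, so it cannot show a scaling offset between the sets. The suffix was not taken to pair libraries in the main fit, though they share it and the spike-in scaling of their set.

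Median-of-ratios and total-sum scaling take nearly the same amount from every gene (from the average acetate change of the 9 genes, 0.64 to 0.64 and 0.62 to 0.63 on the log2 scale), so that a value near that amount changes sign by construction and the turns below under these scalings show no more than that. For acetate against vehicle, the sign turned under median-of-ratios scaling at Tgfb1 (-0.018), Tgfbr2 (-0.0867), Smad2 (-0.086) and Smad7 (-0.0018), and under total-sum scaling at Tgfbr2 (-0.06) and Smad2 (-0.0594). For the average acetate change, the sign turned under median-of-ratios scaling at Tgfbr1 (-0.03), Tgfbr2 (-0.0552), Smad2 (-0.0566), Smad7 (-0.0183), the start site of Smad2 (-0.0521), the start site of Smad4 (-0.0334), the start site of Smad7 (-0.0187), the start site of Tgfb2 (-0.0137) and the start site of Tgfbr2 (-0.0797), and under total-sum scaling at Tgfbr1 (-0.0119), Tgfbr2 (-0.0371), Smad2 (-0.0384), Smad7 (-0.0001), the start site of Smad2 (-0.0339), the start site of Smad4 (-0.0152), the start site of Smad7 (-0.0006) and the start site of Tgfbr2 (-0.0615). For etomoxir against vehicle, the sign turned under median-of-ratios scaling at Tgfb1 (-0.12), Tgfbr2 (-0.0057), Smad3 (-0.0343) and Smad7 (-0.0115), and under total-sum scaling at Tgfb1 (-0.0893) and Smad3 (-0.005), and with shares multiplied by the factor at Tgfb1 (-0.18), Tgfbr2 (-0.0656), Smad2 (-0.0513), Smad3 (-0.0942), Smad7 (-0.0714) and Skil (-0.0593), and with promoter-TSS intervals alone at Tgfbr1 (0.0237), and with gene-body intervals at Tgfbr1 (0.06). For acetate under etomoxir, the sign turned under median-of-ratios scaling at Tgfb1 (-0.12), Tgfbr1 (-0.16), Tgfbr2 (-0.16), Smad2 (-0.22), Smad3 (-0.16), Smad7 (-0.31) and Skil (-0.094), and under total-sum scaling at Tgfbr1 (-0.0355), Tgfbr2 (-0.0304), Smad2 (-0.0871), Smad3 (-0.0304) and Smad7 (-0.19). For etomoxir + SB204990 against vehicle, the sign turned with gene-body intervals at Tgfb2 (-0.36) and Smad4 (-0.30), and under total-sum scaling at Tgfbr2 (0.0695) and Smad2 (0.0019), and with shares multiplied by the factor at Tgfbr2 (0.12) and Smad2 (0.0546). For acetate under etomoxir + SB204990, the sign turned under median-of-ratios scaling at Tgfb2 (-0.0571) and Smad4 (-0.12), and under total-sum scaling at Tgfb2 (-0.16), Tgfbr1 (-0.058), Tgfbr2 (-0.0208) and Smad4 (-0.22). For the etomoxir interaction, the sign turned under median-of-ratios scaling at Tgfb1 (-0.0976), Tgfb2 (-0.0532), Tgfbr1 (-0.20), Tgfbr2 (-0.0722), Smad2 (-0.13), Smad3 (-0.17), Smad7 (-0.31) and Skil (-0.16), and under total-sum scaling at Tgfbr1 (-0.0934), Smad2 (-0.0277), Smad3 (-0.0647), Smad7 (-0.21) and Skil (-0.0593). For the etomoxir + SB204990 interaction, the sign turned with gene-body intervals at Tgfb2 (0.13) and Smad4 (0.17), and under total-sum scaling at Tgfbr1 (-0.12), and with shares multiplied by the factor at Tgfbr1 (-0.11). With 1 library left out, the sign turned for the etomoxir + SB204990 interaction at Smad2 -0.0328 to 0.60, Smad4 -0.82 to 0.51, Tgfb2 -0.70 to 0.32, Tgfbr1 -0.14 to 0.30. With 1 library left out, the sign turned for etomoxir + SB204990 against vehicle at Smad4 -0.58 to 0.76, Tgfb2 -0.41 to 0.61, Tgfbr2 -0.33 to 0.0225. With 1 library left out, the sign turned for acetate under etomoxir + SB204990 at Smad4 -0.23 to 1.11, Tgfb2 -0.0058 to 1.01. With 1 library left out, the sign turned for the etomoxir interaction at Smad7 -0.10 to 0.23. With 1 library left out, the sign turned for etomoxir against vehicle at Tgfb1 -0.0537 to 0.14, Tgfbr1 -0.0783 to 0.0395. The cause of the turns under other settings than these 2 scalings was not tested.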
